A study of Mus musculus with 6 samples.

Results

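The 37 genes described here are interferon-stimulated genes, taken by name from a list of symbols and found as rows of the deposited count tables through their Ensembl identifiers. All 37 had a row among the 53801 gene rows, and Ddx58 is the symbol that the annotation gives for the gene now also named Rigi. The study sequenced messenger RNA of MC3T3-E1, a pre-osteoblast line from mouse calvaria, with 3 Control and 3 Hdac4-knockdown libraries. Control cells carried a lentivirus expressing a scrambled short hairpin RNA, and knockdown cells carried the same kind of virus expressing an Hdac4-shRNA. In both groups the viral vector was pGMLV-HU6-MCS-CMV-ZsGreen1-PGK-Puro, which also expresses a green fluorescent protein, and both were kept in puromycin at 5 μg/ml for 7 days. Each group is therefore a selected cell population made with 1 hairpin, and all libraries come from cells infected with a lentivirus, with no uninfected cells among them. The labels describe independent RNA samples and the study calls them biological replicates, but neither says whether they came from separate infections, so p-values measure only the spread between these RNA samples.

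Interferons are secreted proteins that cells release when they sense viral nucleic acid. Type I interferons bind the receptor chains Ifnar1 and Ifnar2, whose kinases Jak1 and Tyk2 phosphorylate STAT proteins, and Stat2 joins Irf9 in a complex that binds the interferon-stimulated response element of target promoters. The products sense foreign RNA, degrade or edit it, tether or block viral particles, and feed back on the pathway, and many cell types keep a low level of these genes without added interferon.

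The response element is the sequence bound by the complex that holds Stat2 and Irf9. Promoters that hold its letters are therefore shown first, from members that changed in either direction and from neighbours that differed. Promoters without these letters, such as those of Cmpk2, Oasl1, Irf7 and Trim25, which were also called, are not printed. RefSeq promoter windows on GRCm38.p6, running from 250 bases before to 50 bases after an annotated start, were matched for 28 of the 37 members. Mx1, Mx2, Oas2, Usp18, Dhx58, Ifi27, Rtp4, Zbp1 and Parp14 had no entry. The motif searched was GAAA, any 2 bases and GAAA again, on either strand, and it was present in 14 of the 28 members (50%) and in 3.99% of all 27025 genes with a window. A second motif, TTCNNNGAA, the core of the gamma-activated site that STAT dimers bind, was chosen after values of the members were known, and its letters can overlap those of the first. It was found in 10 of the 28 members (35.7%) and in 9.55% of all genes. A match describes letters in a window and is not a measured binding site. Each sequence gives the 200 bases before the annotated start, 5′ to 3′ on the gene's strand. Capitals mark the first motif, that of the response element, or its reverse complement, and overlapping matches run together.
Rsad2 (chr12:26456453-26456652, minus strand): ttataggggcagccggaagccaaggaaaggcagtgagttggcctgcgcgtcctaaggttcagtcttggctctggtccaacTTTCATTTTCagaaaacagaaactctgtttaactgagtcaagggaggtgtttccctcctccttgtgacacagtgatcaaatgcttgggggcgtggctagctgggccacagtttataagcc
Bst2 (chr8:71537473-71537672, minus strand): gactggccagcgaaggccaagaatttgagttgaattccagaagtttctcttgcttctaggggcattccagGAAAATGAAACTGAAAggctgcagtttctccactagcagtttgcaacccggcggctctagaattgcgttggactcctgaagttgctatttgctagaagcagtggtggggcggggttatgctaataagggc
Oas3 (chr5:120777660-120777859, minus strand): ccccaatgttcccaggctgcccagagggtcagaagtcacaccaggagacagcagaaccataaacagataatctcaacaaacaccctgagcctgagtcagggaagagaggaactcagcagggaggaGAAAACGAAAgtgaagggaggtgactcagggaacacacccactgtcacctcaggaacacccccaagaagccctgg
Isg15 (chr4:156200819-156201018, minus strand): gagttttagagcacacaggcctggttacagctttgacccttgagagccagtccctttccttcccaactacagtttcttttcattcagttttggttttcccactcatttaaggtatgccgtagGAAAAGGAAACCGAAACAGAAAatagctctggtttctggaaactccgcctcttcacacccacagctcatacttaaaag
Gbp3 (chr3:142559844-142560043, plus strand): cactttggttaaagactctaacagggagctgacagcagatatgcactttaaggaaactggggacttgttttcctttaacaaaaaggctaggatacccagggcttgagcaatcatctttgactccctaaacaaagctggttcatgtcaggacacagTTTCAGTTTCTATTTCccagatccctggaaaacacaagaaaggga
Gbp2 (chr3:142620463-142620662, plus strand): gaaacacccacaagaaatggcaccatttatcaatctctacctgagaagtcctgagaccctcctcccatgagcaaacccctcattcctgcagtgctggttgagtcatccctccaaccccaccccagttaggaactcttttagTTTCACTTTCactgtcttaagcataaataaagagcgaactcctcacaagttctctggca
Ifit3 (chr19:34583329-34583528, plus strand): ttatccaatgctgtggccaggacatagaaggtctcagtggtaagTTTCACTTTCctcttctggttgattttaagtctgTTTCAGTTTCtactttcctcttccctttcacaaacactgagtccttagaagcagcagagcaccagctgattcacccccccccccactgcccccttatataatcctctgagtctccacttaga
Ifit1 (chr19:34640689-34640888, plus strand): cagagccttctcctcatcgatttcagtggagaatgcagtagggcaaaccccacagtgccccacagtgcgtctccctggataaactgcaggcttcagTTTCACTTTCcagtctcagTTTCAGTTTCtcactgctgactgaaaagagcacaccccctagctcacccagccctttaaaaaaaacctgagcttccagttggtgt
The Isg15 window held 3 overlapping matches, which began 78, 72 and 66 bases before the start. The Bst2 matches began 130 and 124 bases before it, and the single Rsad2 match 120 bases before it. The pair of matches in Ifit1 began 104 and 85 bases before the start, and that in Ifit3 156 and 122 bases before it.

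**Figure D1:**
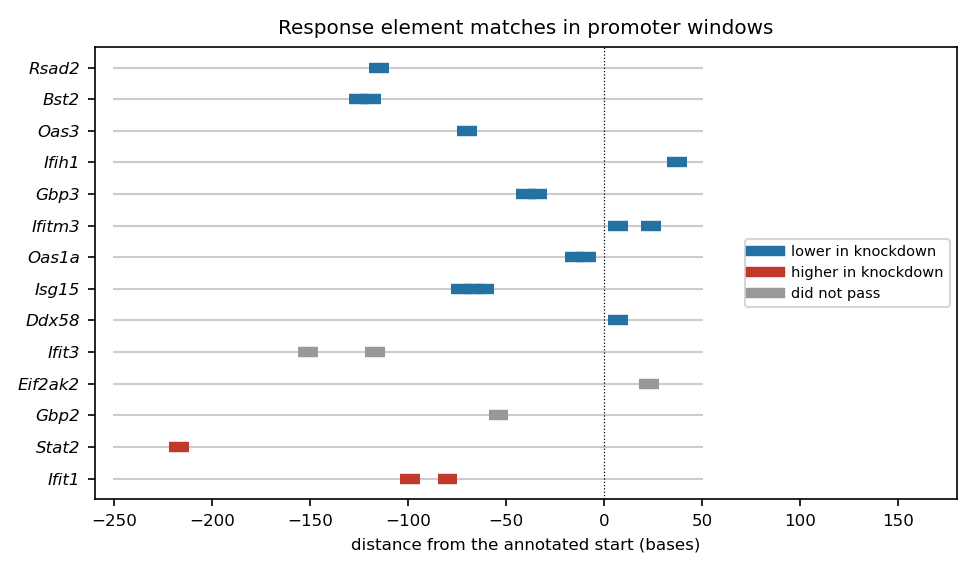
Position of matches to the response element motif (GAAA, any 2 bases, GAAA, either strand) in the promoter windows of the 14 members that hold one. The horizontal axis is the distance in bases from the annotated start, each grey line is 1 window, and the colour of a block gives the result of the comparison of Hdac4-knockdown with Control. Matches lie before the start in genes that were lower, higher or not called, and after it in Ifih1, Ifitm3, Ddx58 and Eif2ak2.

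Across libraries, reads counted on genes numbered 29096544 to 31651826, and values are given as CPM, the counts scaled to library size, after TMM normalization. Hdac4 had 40.7, 40.2 and 39.9 CPM in Control replicates 1 to 3 and 30.7, 28.8 and 29.5 CPM in the knockdown replicates, with no overlap (log2 fold change -0.44, SE 0.057, adjusted p = 8.98e-07, edgeR quasi-likelihood test). Of its 15813 exon bases, 3536 are shared with Gm26720. Among 12 pre-osteoblast and mesenchymal markers, 10 could be tested. Of these, 9 (90%) were higher in the knockdown, beside 38% of all genes tested, and 1, Spp1 (10%), was lower, beside 37.1%. The summed level was 6000 to 6050 CPM in Control and 24600 to 25400 CPM in knockdown libraries. Most of the knockdown sum came from Col1a1, with means of 338 CPM in Control and 11000 CPM in the knockdown, and Col1a2, with 1210 and 8570 CPM. Alpl, a defining marker of osteoblasts, had at most 3 counts in every library. Of 13 haematopoietic markers, 4 could be tested and 2 of them (50%, beside 38% of all genes), Csf1r and Lyz2, were higher in the knockdown. The summed level was 13.9 to 16.5 CPM in Control and 18.5 to 21.5 CPM in knockdown libraries. Most of it came from Cd14, which was not called, with means of 12.5 CPM in Control and 14.1 CPM in the knockdown. Adgre1, Cd3e and Siglech had no count in any library, and Tyrobp had at most 3. The endothelial markers summed to 0.262 to 0.421 CPM in Control and 2.81 to 3.16 CPM in knockdown libraries, and the epithelial markers to 0.491 to 0.969 and 0.565 to 0.905 CPM. The part of these marker levels in the results below was not tested.

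Knockdown libraries had lower levels of most of the 37 listed interferon-stimulated genes, by amounts that differed widely from gene to gene. All 37 members passed the filter on low counts. A gene was called when its adjusted p was below 0.05 and its log2 fold change was beyond 0.05 in size, by the edgeR quasi-likelihood test with Benjamini-Hochberg adjustment over 14531 genes. By this rule 25 members fell (67.6%), beside 37.1% of all genes tested, and 4 rose (10.8%), beside 38% of all genes. The remaining 8 were not called. In all, 78.4% of the members were called in either direction, close to the 75.1% of all genes. With a 2-fold limit, 7 members fell (18.9%, beside 10.6% of all genes), namely Cmpk2, Rsad2, Oasl1, Bst2, Oas3, Ifih1 and Zbp1. None rose beyond 2-fold, beside 16.5% of all genes, and 27.1% of all genes passed this limit in either direction. The members' median log2 fold change was -0.30, and that of all genes tested was 0.01. All 3 knockdown libraries lay below all 3 Control libraries for 24 members, beside 38% of all genes, and above them for 3 members, beside 38.8% of all genes. Together these were 73% of the members, beside 76.8% of all genes. For a single gene, the smallest p of a two-sided exact permutation test of 3 against 3 libraries is 0.1, so calls rest on the fit across genes. In bulk RNA, fewer cells that express a gene and less RNA per cell cannot be told apart.

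**Figure D2:**
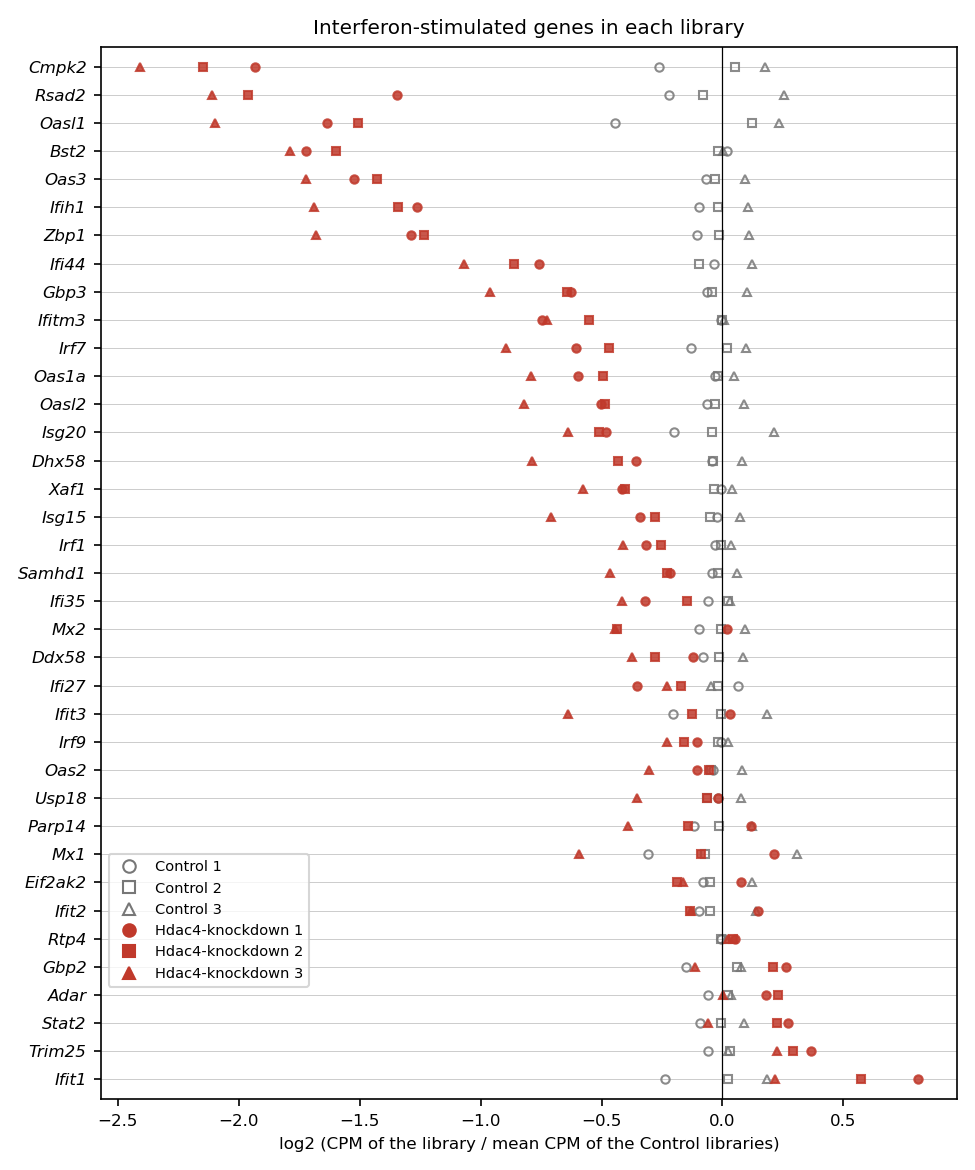
Level of each of the 37 interferon-stimulated genes in each library, as log2 of the library's CPM over the mean CPM of the 3 Control libraries. Rows are ordered by fold change, open grey symbols are Control and filled red symbols are knockdown libraries. Cmpk2, at the top, fell by 2.15 on the log2 scale, and Ifit1, at the bottom, rose by 0.55.

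The transcription factors of the response were 3 lower and 1 higher. Irf7, which drives interferon genes themselves, had 93.5, 104 and 109 CPM in Control and 67.2, 73.7 and 55 CPM in knockdown libraries. No knockdown library reached the lowest Control library (log2 fold change -0.64, SE 0.0775, adjusted p = 3.45e-07). Irf1, an activator also induced by interferon gamma, had 41.7, 42.5 and 43.7 CPM in Control and 34.3, 35.7 and 32 CPM in knockdown libraries, with narrow groups that stood apart (log2 fold change -0.33, SE 0.0584, adjusted p = 5.11e-05). Irf9, the DNA-binding subunit of the type I complex, had 96.5, 95.5 and 98.6 CPM in Control and 89.9, 86.9 and 82.6 CPM in knockdown libraries. These groups were apart but close (log2 fold change -0.16, adjusted p = 0.00356), and the call was lost with upper quartile normalization (log2 fold change -0.074, adjusted p = 0.154) and without replicate 3 of both groups (adjusted p = 0.0982). Stat2, the transactivating subunit of that complex, had 139, 148 and 158 CPM in Control and 178, 173 and 142 CPM in knockdown libraries. Knockdown replicate 3 lay inside the Control range and the other two above it (log2 fold change 0.15, adjusted p = 0.042). This call was lost without Control replicate 1 (log2 fold change 0.10, adjusted p = 0.227), without Control replicate 2 (adjusted p = 0.109), without knockdown replicate 1 (log2 fold change 0.10, adjusted p = 0.182) and without knockdown replicate 2 (adjusted p = 0.101), whereas without knockdown replicate 3 the log2 fold change was 0.25.

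Sensors of foreign nucleic acid were 4 lower, 1 higher and 1 not called. Ifih1, or MDA5, which recognizes long double-stranded RNA, had 74.1, 78.3 and 85.4 CPM in Control and 33, 31.3 and 24.6 CPM in knockdown libraries. The knockdown mean was 37.4% of the Control mean, with a wide gap between groups (log2 fold change -1.42, SE 0.0806, adjusted p = 3.92e-12). Zbp1, a sensor of Z-form nucleic acid that can start cell death, was at 51.8, 55.2 and 60.2 CPM in Control and 22.8, 23.7 and 17.4 CPM in knockdown libraries, a like separation (log2 fold change -1.38, SE 0.0867, adjusted p = 1.85e-11). Dhx58, or LGP2, a helicase that assists the other sensors, had 41.2, 41.2 and 44.8 CPM in Control and 33.1, 31.5 and 24.6 CPM in knockdown libraries. All knockdown libraries were lower (log2 fold change -0.51, adjusted p = 1.56e-05), and 141 of the 3272 exon bases of Dhx58 are shared with Dhx58os. Ddx58, or RIG-I, the sensor of uncapped RNA ends, had 188, 197 and 211 CPM in Control and 183, 164 and 153 CPM in knockdown libraries. Knockdown replicate 1 came within a few CPM of Control replicate 1 (log2 fold change -0.25, SE 0.0564, adjusted p = 4.62e-04). Without replicate 3 of both groups, the Ddx58 call was lost (log2 fold change -0.16, adjusted p = 0.0514). Adar, which edits adenosine to inosine in double-stranded RNA, had 137, 145 and 147 CPM in Control and 162, 168 and 143 CPM in knockdown libraries. Knockdown replicate 3 again lay within the Control range (log2 fold change 0.14, adjusted p = 0.0209), and 1365 of the 8118 exon bases of Adar are shared with Chrnb2. The Adar call was lost without Control replicate 1 (adjusted p = 0.137), knockdown replicate 1 (adjusted p = 0.0502) or knockdown replicate 2 (adjusted p = 0.075), and its log2 fold change was 0.22 without replicate 3 of both groups. Eif2ak2, or PKR, the kinase that stops translation when bound to double-stranded RNA, was not called, with 169, 172 and 195 CPM in Control and 189, 157 and 159 CPM in knockdown libraries (log2 fold change -0.09, adjusted p = 0.221). Knockdown replicate 1 was above 2 of the Control libraries, and without it Eif2ak2 was called lower (log2 fold change -0.17, adjusted p = 0.00872).

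Of the 3 IFIT genes among the 37, 1 rose and the other two were not called. Ifit1, which binds RNA whose cap lacks a methyl group, had 117, 140 and 157 CPM in Control and 242, 206 and 161 CPM in knockdown libraries. Knockdown replicate 3 stood just above the highest Control library, and the mean was 1.47 times the Control mean (log2 fold change 0.55, SE 0.104, adjusted p = 8.64e-05). Over all alternatives its log2 fold change ran from 0.42 to 0.79. Ifit3, a partner that strengthens RNA binding by the family, had 186, 213 and 244 CPM in Control and 219, 196 and 138 CPM in knockdown libraries, and it was not called (log2 fold change -0.22, adjusted p = 0.0868). The knockdown libraries of Ifit3 covered a wider range than the Control libraries, and replicate 3 alone was below them. Ifit3 was called lower without knockdown replicate 1 (log2 fold change -0.35, adjusted p = 0.00656), without Control replicate 1 (log2 fold change -0.32, adjusted p = 0.0191) or without knockdown replicate 2 (adjusted p = 0.0382), and its log2 fold change was 0.052 without replicate 3 of both groups. Ifit2, a further family member, had 55.8, 57.6 and 65.9 CPM in Control and 66.2, 54.4 and 54.7 CPM in knockdown libraries. The groups covered nearly the same range (log2 fold change -0.03, adjusted p = 0.702). Reads of Ifit3 that fit its near-identical copy Ifit3b equally well are not counted by a counter that skips reads aligned to several places, so this level is uncertain. Of the IFIT genes outside the 37, Ifit3b fell (log2 fold change -0.28, adjusted p = 0.0304) with overlapping groups, and Ifit1bl1 rose from a low level (log2 fold change 1.18, adjusted p = 0.0105).

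All 5 OAS family genes among the 37 fell, though by very different amounts. Oas1a, Oas2 and Oas3 make oligoadenylates that activate RNase L, which cleaves RNA. Oas3 had 225, 231 and 252 CPM in Control and 82, 87.8 and 71.6 CPM in knockdown libraries. The knockdown mean was 34.1% of the Control mean, with groups far apart (log2 fold change -1.55, SE 0.0608, adjusted p = 9.54e-15). Oas1a had 135, 136 and 143 CPM in Control and 91.3, 98 and 79.9 CPM in knockdown libraries, a smaller gap (log2 fold change -0.62, SE 0.058, adjusted p = 9.19e-09). Reads shared with the near-identical Oas1g carry the same uncertainty as those of Ifit3. Oas2 had 177, 176 and 192 CPM in Control and 169, 175 and 147 CPM in knockdown libraries, and knockdown replicate 2 almost touched the Control range (log2 fold change -0.15, adjusted p = 0.0202). Without knockdown replicate 3 the Oas2 log2 fold change was -0.074 (adjusted p = 0.218), and without Control replicate 3 it was -0.12 (adjusted p = 0.0883), so the call was lost in each case. It was also lost without replicate 3 of both groups (log2 fold change -0.044, adjusted p = 0.539). Oasl1, which lacks the synthetase activity and limits Irf7 translation, was counted 99, 144 and 148 times in Control and 44, 50 and 31 times in knockdown libraries. It had the lowest level per length of the 37 genes, and its knockdown libraries were all lower (log2 fold change -1.72, SE 0.217, adjusted p = 6.74e-07). Oasl2, a related protein with a ubiquitin-like tail, had 259, 266 and 288 CPM in Control and 191, 194 and 153 CPM in knockdown libraries, without overlap (log2 fold change -0.59, SE 0.0661, adjusted p = 1.17e-07). None of the 3 further Oas genes listed outside the 37, all on chromosome 5, was called lower. Oas1b rose, with 10.9, 10.4 and 11.7 CPM in Control and 19.7, 18.6 and 16.5 CPM in knockdown libraries, without overlap (log2 fold change 0.73, adjusted p = 4.00e-07). Oas1c rose with overlapping groups (log2 fold change 0.61, adjusted p = 0.00831), and Oas1g was not called (log2 fold change -0.12, adjusted p = 0.0885).

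Among the GTPases, 2 fell and 2 were not called. Gbp3, a guanylate-binding protein of the kind that attacks the vacuoles of pathogens, had 106, 108 and 119 CPM in Control and 71.9, 71.1 and 57 CPM in knockdown libraries. All knockdown libraries were well below Control (log2 fold change -0.74, SE 0.0695, adjusted p = 1.10e-08). Gbp2, of the same family and locus, had 41.7, 48.3 and 48.8 CPM in Control and 55.5, 53.6 and 42.7 CPM in knockdown libraries. Its replicate 3 fell among the Control libraries and the other two lay above them (log2 fold change 0.13, adjusted p = 0.152), and without knockdown replicate 3 it was called higher (log2 fold change 0.24, adjusted p = 0.00501). Mx2, a dynamin-like antiviral protein of the cytoplasm, had 26.6, 28.3 and 30.3 CPM in Control and 28.8, 21 and 20.9 CPM in knockdown libraries. Knockdown replicate 1 was inside the Control range and the others were below it (log2 fold change -0.27, adjusted p = 0.0172). The Mx2 call was lost without Control replicate 3 (adjusted p = 0.0599), knockdown replicate 2 (adjusted p = 0.071) or knockdown replicate 3 (adjusted p = 0.111), and without knockdown replicate 1 the log2 fold change was -0.43. Without replicate 3 of both groups Mx2 was not called either (log2 fold change -0.15, adjusted p = 0.288). Mx1, its relative, had 6.64, 7.82 and 10.2 CPM in Control and 9.53, 7.73 and 5.45 CPM in knockdown libraries, with overlapping groups (log2 fold change -0.11, adjusted p = 0.555).

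In the ISG15 system, 1 member fell, 1 rose and 1 was not called. Isg15, the ubiquitin-like modifier itself, had 181, 177 and 193 CPM in Control and 145, 151 and 113 CPM in knockdown libraries. All knockdown libraries were lower, the third by the most (log2 fold change -0.43, SE 0.0739, adjusted p = 3.22e-05). Without replicate 3 of both groups, its log2 fold change was -0.28. Trim25, a ubiquitin ligase that acts on RIG-I, had 121, 129 and 128 CPM in Control and 162, 154 and 147 CPM in knockdown libraries. All knockdown libraries were higher (log2 fold change 0.29, SE 0.0462, adjusted p = 1.08e-05). Usp18, which removes Isg15 from proteins and restrains the receptor, had 121, 117 and 129 CPM in Control and 121, 117 and 95.8 CPM in knockdown libraries. Knockdown replicates 1 and 2 were at the level of Control libraries and replicate 3 was below them (log2 fold change -0.14, adjusted p = 0.068). Usp18 was called lower without Control replicate 2 (adjusted p = 0.0429), without knockdown replicate 1 (adjusted p = 0.0156) or without knockdown replicate 2 (adjusted p = 0.0188).

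Of the restriction factors and enzymes of nucleotide metabolism, 4 fell and 1 was not called, and those that fell the most were the neighbours Cmpk2 and Rsad2. Cmpk2, a mitochondrial kinase of pyrimidine nucleotides, had 56.5, 70.2 and 76.4 CPM in Control replicates 1 to 3 and 17.7, 15.3 and 12.8 CPM in knockdown replicates 1 to 3. Every knockdown library was far below every Control library, and the knockdown mean was 22.5% of the Control mean (log2 fold change -2.15, SE 0.104, adjusted p = 3.05e-13). Rsad2, or viperin, an enzyme that makes a chain-terminating nucleotide, had 57.4, 63.3 and 79.9 CPM in Control and 26.3, 17.2 and 15.5 CPM in knockdown libraries. The groups did not overlap, although knockdown replicate 1 stood above the other two (log2 fold change -1.77, SE 0.136, adjusted p = 4.75e-10). The other enzymes differed by less. Samhd1, which hydrolyses deoxynucleotides, had 119, 121 and 128 CPM in Control and 106, 105 and 89.1 CPM in knockdown libraries, again without overlap (log2 fold change -0.30, SE 0.0569, adjusted p = 1.01e-04). Without replicate 3 of both groups, its log2 fold change was -0.20. Isg20, an exonuclease, was at 13.2, 14.6 and 17.5 CPM in Control and 10.8, 10.6 and 9.7 CPM in knockdown libraries, so that all knockdown libraries were lower (log2 fold change -0.54, adjusted p = 1.01e-04). Parp14, a mono-ADP-ribosyltransferase, was not called, with 87.2, 93.7 and 103 CPM in Control and 103, 85.9 and 72.2 CPM in knockdown libraries (log2 fold change -0.12, adjusted p = 0.205). The knockdown libraries of Parp14 ran from below the Control range to its upper end. Without knockdown replicate 1 it was called lower (log2 fold change -0.25, adjusted p = 0.00381).

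Of the membrane proteins, 2 fell and 1 was not called. Bst2, or tetherin, which holds budding virus particles at the cell surface, had 466, 454 and 460 CPM in Control and 140, 152 and 133 CPM in knockdown libraries. Both groups were narrow and far apart, and the knockdown mean was 30.8% of the Control mean (log2 fold change -1.70, SE 0.046, adjusted p = 2.64e-17). Ifitm3, which blocks fusion of viruses in endosomes, had 487, 489 and 490 CPM in Control and 291, 334 and 296 CPM in knockdown libraries. The Control libraries were almost level and the knockdown libraries all lower (log2 fold change -0.67, SE 0.0463, adjusted p = 8.33e-11). Rtp4, a transporter protein that helps receptors to the surface, had 87.5, 87.6 and 88.7 CPM in Control and 91, 90.5 and 89.4 CPM in knockdown libraries. Its groups did not overlap, but the difference of a few CPM was not called (log2 fold change 0.04, SE 0.0431, adjusted p = 0.428). With upper quartile normalization, Rtp4 was called higher (log2 fold change 0.13, adjusted p = 0.012).

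All 4 remaining members fell, each with groups that did not overlap. Ifi44, a cytoplasmic antiviral protein, had 199, 191 and 222 CPM in Control and 121, 112 and 97.1 CPM in knockdown libraries. Its knockdown mean was 53.9% of the Control mean, the lowest among these 4 (log2 fold change -0.89, SE 0.0651, adjusted p = 2.11e-10). Xaf1, which promotes apoptosis by binding an inhibitor of caspases, had 107, 104 and 110 CPM in Control and 80.2, 81 and 71.7 CPM in knockdown libraries (log2 fold change -0.46, adjusted p = 9.91e-08). Ifi35, a leucine zipper protein, had 39.8, 42.1 and 42.3 CPM in Control and 33.2, 37.5 and 31.1 CPM in knockdown libraries (log2 fold change -0.29, adjusted p = 6.81e-04). Of its 1727 exon bases, 290 are shared with Gm11626. Ifi27, a small protein of mitochondrial membranes, had 110, 104 and 102 CPM in Control and 82.3, 93.5 and 89.7 CPM in knockdown libraries (log2 fold change -0.25, adjusted p = 2.11e-04). In all, 12 of the 37 members share exon bases with another annotated gene, and because the reads carry no strand, reads in those bases cannot be assigned to one or the other.

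Levels of different genes were compared per kilobase of annotated exon. On this scale Ifitm3 was the highest member in Control, at 721 CPM per kb, and stayed the highest in the knockdown, at 453. Bst2 was at 509 CPM per kb in Control and 157 in the knockdown, and Isg15 at 243 and 180, so that Bst2 ranked 2 in Control and 3 in the knockdown. Ifit3 ranked 4 in both groups, at 123 and 106 CPM per kb. Ifit1 rose from 52.1 to 76.4 CPM per kb and moved from rank 7 to rank 5. Oas3 went from 33.4 to 11.4 CPM per kb, or from rank 14 to rank 25. Oasl1 was the lowest member in both groups, at 1.69 and 0.512 CPM per kb, and Mx1 the next lowest, at 2.17 and 2.00.

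**Figure D3:**
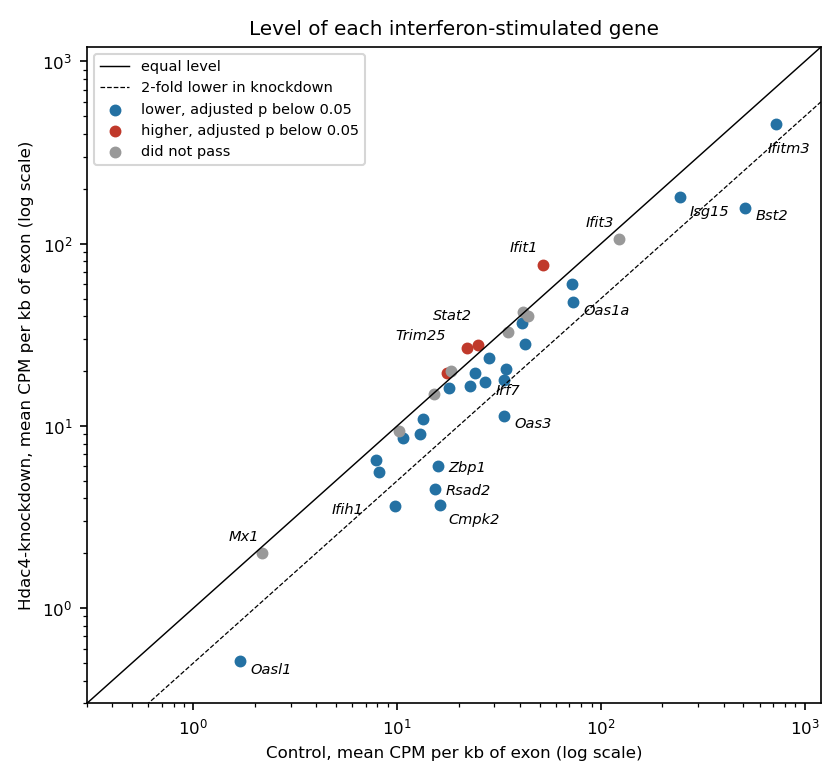
Mean level of each member in Control (horizontal) and Hdac4-knockdown libraries (vertical), in CPM per kb of exon on log scales, n = 3 libraries per group. Points on the solid line have equal levels, and those below the dashed line are more than 2-fold lower in the knockdown. Bst2, Oas3, Cmpk2, Rsad2, Zbp1, Ifih1 and Oasl1 lie below the dashed line over a wide range of levels.

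How evenly neighbouring members moved was measured as the ratio of their counts within each library, in 10 pairs of members at most 744.1 kb apart. The ratio did not overlap between the groups in 6 of the 10 pairs, beside 72.8% of all neighbouring pairs of tested genes within that distance, so the share is not above the background. On chromosome 5, Oas2 and Oas3 lie 3.2 kb apart, and the ratio of Oas2 to Oas3 was 0.784, 0.762 and 0.763 in Control and 2.06, 1.99 and 2.05 in knockdown libraries. This ratio was nearly constant within each group, and the groups did not overlap (difference of log2 ratios 1.40, two-sided exact permutation p = 0.1, the smallest that 3 against 3 libraries can give). The ratio of Oas3 to Oas1a, 118.6 kb away, was 1.67, 1.7 and 1.76 in Control and 0.898, 0.896 and 0.897 in knockdown libraries. Gbp3 and Gbp2, 47.4 kb apart on chromosome 3, had ratios of 2.55, 2.23 and 2.44 in Control and 1.3, 1.33 and 1.33 in knockdown libraries. Both pairs were likewise apart, with exact permutation p = 0.1, and the Gbp2 window and 1 of the 2 Gbp3 windows held the response element letters. Ifit3 and Ifit1, 52.1 kb apart on chromosome 19, had ratios of 1.58, 1.52 and 1.55 in Control and 0.904, 0.953 and 0.855 in knockdown libraries. This ratio varied less within either group than the CPM of either gene, and the groups did not overlap (difference of log2 ratios -0.78, exact permutation p = 0.1). Oasl2 to Oasl1, 11.0 kb apart, gave 79.9, 55.2 and 55.5 in Control and 134, 125 and 149 in knockdown libraries. Rsad2 to Cmpk2, 12.8 kb apart, gave 1.02, 0.901 and 1.04 in Control and 1.48, 1.12 and 1.21 in knockdown libraries, the smallest of the differences between groups that did not overlap (difference of log2 ratios 0.36, exact permutation p = 0.1). The ratios of Ifit2 to Ifit3, 7.1 kb apart, of Mx1 to Mx2, 72.4 kb apart, of Dhx58 to Ifi35 and of Ifitm3 to Irf7 overlapped between the groups. For Ifitm3 and Irf7, 251.9 kb apart, the difference of log2 ratios was -0.02 (exact permutation p = 0.8), and for Dhx58 and Ifi35 it was -0.23 (exact permutation p = 0.2).

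Most members ranked the libraries of a group in the same way. Knockdown replicate 3 was the lowest knockdown library for 33 of the 37 members (89.2%), beside 28.5% of all genes tested, and the exceptions were Ifit2, Eif2ak2, Ifi27 and Ifitm3. Control replicate 3 was the highest Control library for 34 members (91.9%), beside 33.3% of all genes, and the exceptions were Bst2, Ifi27 and Trim25. Control replicate 1 was the lowest Control library for 29 members (78.4%), beside 34.6% of all genes. The members' median log2 distance from the mean of the other 2 libraries of the same group was -0.10, -0.02 and 0.14 in Control replicates 1, 2 and 3 and 0.17, 0.12 and -0.24 in the knockdown replicates. The median coefficient of variation over members was 5.9% in Control and 11.5% in knockdown libraries. Over all genes tested it was 5.36% and 6.45%, and over the 9277 genes with at least 10 CPM it was 3.62% and 4.62%. Taken 1 at a time, knockdown replicates 1, 2 and 3 had 25, 31 and 33 members below the Control mean, with median log2 ratios of -0.32, -0.28 and -0.58. Without replicate 3 of both groups, an alternative added after the data were seen, 21 members were called lower, 7 of them beyond 2-fold, and 5 higher, and the median log2 fold change was -0.27.

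**Figure D4:**
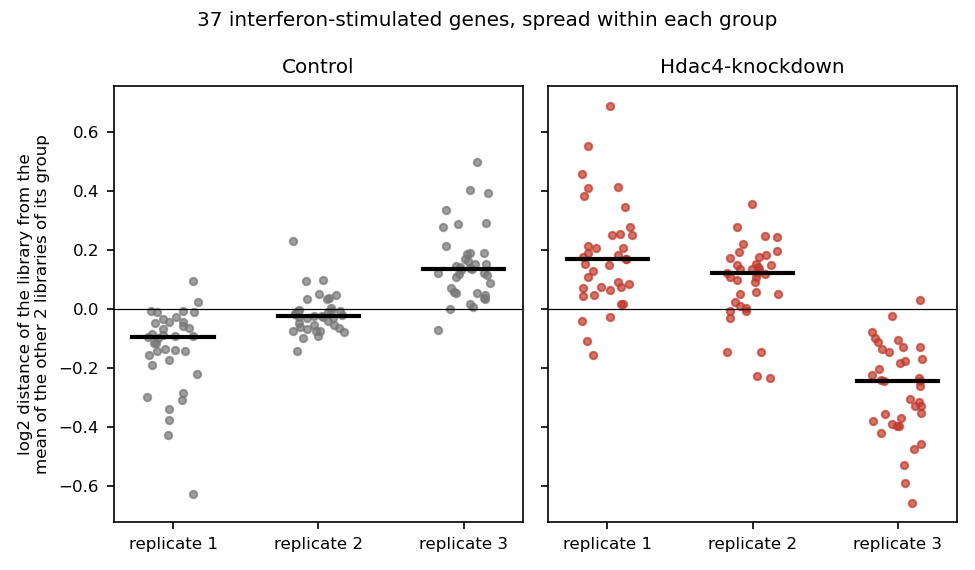
Vertical axis, log2 distance of each member's CPM in a library from the mean of the other 2 libraries of its group, for each of the 6 libraries. Each point is 1 of the 37 genes and the bars are medians, which were 0.14 in Control replicate 3 and -0.24 in knockdown replicate 3.

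The other genes of the pathway were counted in lists by their place in it. Of 98 listed genes, 80 could be tested, of which 34 rose (42.5%, beside 38% of all genes) and 31 fell (38.8%, beside 37.1%), with a median log2 fold change of 0.06. With upper quartile normalization these counts were 40 and 24. None of the 12 ligand genes passed the filter on low counts. Ifnb1, the interferon that fibroblast-like cells mainly make, was counted 2, 1 and 6 times in Control and 9, 24 and 6 times in knockdown libraries, so the highest Control and the lowest knockdown library had equal counts. Ifnz, another type I interferon, was counted 0, 1 and 0 times in Control and 15, 6 and 2 times in knockdown libraries. Ifna2, Ifna5, Ifnk, Ifng, Ifnl2 and Ifnl3 had no count in any library.

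Of 5 receptor genes tested, 1 rose (20%, beside 38% of all genes) and 2 fell (40%, beside 37.1%). Ifnar1, a chain of the type I receptor, had 73.3, 84.3 and 78.2 CPM in Control and 65.3, 63 and 65.2 CPM in knockdown libraries, with no overlap (log2 fold change -0.28, adjusted p = 7.92e-05). Ifnar2, the other chain, overlapped between the groups (log2 fold change 0.15, adjusted p = 0.0783). Of the interferon gamma receptor chains, Ifngr2 rose (log2 fold change 0.22, adjusted p = 0.00192), and Ifngr1 had a log2 fold change of 0.02 (adjusted p = 0.731). Il10rb, a chain of the lambda receptor, fell with overlapping groups (log2 fold change -0.27, adjusted p = 0.0467). Of the 3808 exon bases of Il10rb, 569 are shared with Gm21970. Its partner Ifnlr1, too low to test, had no count in Control and 14, 12 and 8 counts in knockdown libraries. Among the kinases and STATs, Jak1 had 284, 295 and 287 CPM in Control and 228, 220 and 220 CPM in knockdown libraries. The Jak1 groups were narrow and apart (log2 fold change -0.37, SE 0.0391, adjusted p = 5.08e-08). Jak2 and Tyk2, the other kinases of these receptors, had log2 fold changes of 0.03 and 0.06 (adjusted p = 0.597 and 0.423). Stat3, which mainly serves other cytokines, rose (log2 fold change 0.38, adjusted p = 5.59e-08).

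The list of genes around interferon induction is not confined to activators. Among 14 of its genes tested, 9 were higher (64.3%) and 2 lower (14.3%), beside the same 38% and 37.1% of all genes. Their median log2 fold change was 0.29. Irf5, a factor that acts after Toll-like receptors, had 2.19, 2.74 and 3.05 CPM in Control and 15.4, 15.3 and 14.1 CPM in knockdown libraries, the largest log2 fold change of this list (2.49, adjusted p = 3.41e-13). Sting1, the adaptor of DNA sensing, had 5.89, 6.31 and 6.6 CPM in Control and 3.07, 3.69 and 4.02 CPM in knockdown libraries, the smallest (-0.80, adjusted p = 3.24e-05). Both genes had groups that did not overlap. Of 9 negative regulators tested, 4 rose (44.4%) and 1 fell (11.1%), with a median of 0.18. They ran from Pias1, an inhibitor of STAT proteins (log2 fold change -0.20, adjusted p = 0.00623), to Ptpn6, a phosphatase (log2 fold change 1.58, adjusted p = 0.00384). Ptpn6 had few counts, 6, 10 and 20 in Control and 17, 55 and 42 in knockdown libraries, and its groups overlapped. A further 47 interferon-stimulated genes outside the 37 were 24 lower (51.1%) and 19 higher (40.4%), with a median of -0.15. Among these the range ran from Ifitm1, the relative of Ifitm3, with 13.6, 11.3 and 12.2 CPM in Control and 1.58, 1.27 and 2.39 CPM in knockdown libraries (log2 fold change -2.83, adjusted p = 4.97e-12), to Sp110, a nuclear body protein (log2 fold change 4.51, adjusted p = 4.85e-11). Sp110 had 0.556, 0.0668 and 0.211 CPM in Control and 6.85, 7.01 and 5.61 CPM in knockdown libraries, which did not overlap. Knockdown replicate 3 was the lowest knockdown library for 40 of these 47 genes (85.1%), beside 28.5% of all genes tested. It was also the lowest for 3 of the 5 kinases and STATs (60%) and 4 of the 9 negative regulators (44.4%). The count was 5 of 14 in the induction list (35.7%) and 0 of the 5 receptor genes.

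**Figure D5:**
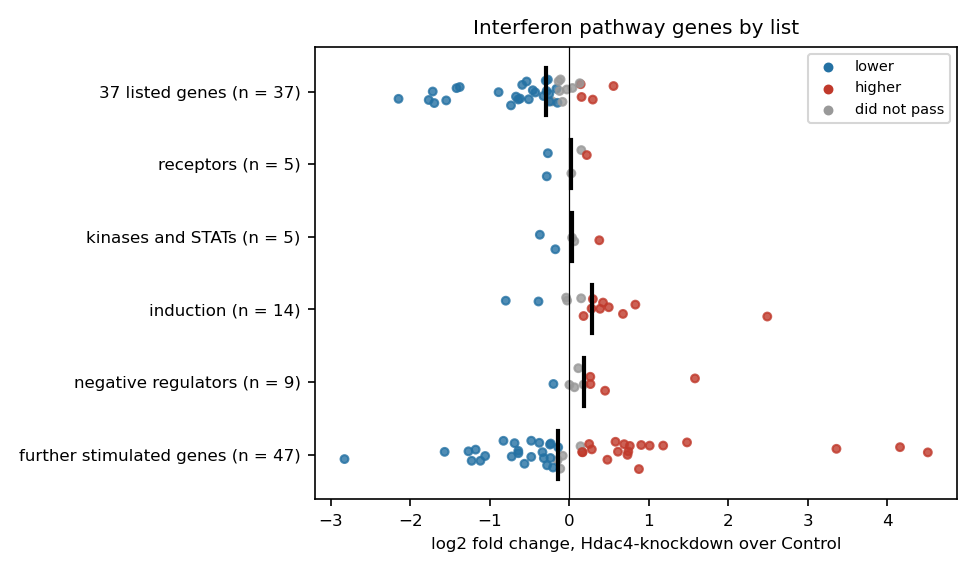
Log2 fold change of the tested genes of each list, Hdac4-knockdown over Control, with a black bar at each list's median. Blue points passed the test as lower, red as higher and grey did not pass. The medians were -0.30 for the 37 members, 0.29 for the induction list and -0.15 for the further stimulated genes.

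Counts of members with and without the response element letters in their window are given side by side, with no test. The 9 members without a window are in neither count. Of the 14 with a match, 9 fell (64.3%, beside 37.1% of all genes), 2 rose (14.3%, beside 38%) and 3 were not called. Their median log2 fold change was -0.53. Of the 14 whose windows held no match, 11 fell (78.6%), 2 rose (14.3%) and 1 was not called, with a median of -0.39. Cmpk2, the member with the lowest fold change, and Trim25, which rose, were among those without a match, and Ifit1 was among those with one.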

How the data were processed

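RNA of 3 Control and 3 Hdac4-knockdown samples was sequenced after poly-T selection with an unstranded kit. The authors deposited raw read counts per Ensembl gene for each library, without normalization. The submitters' processing notes name STAR 2.7.3a, HTSeq 0.12.4, FastQC and mm10. Their settings and the annotation release are not given in the sources used here. Summary lines for reads not assigned to a gene, 14.3 to 15.0% of each table, were left out of library sizes and tests.

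Of 53801 identifiers, 53620 took a symbol, and 53706 were found in GENCODE M21 (GRCm38), which gave positions and exon lengths. The comparison used the quasi-likelihood F test of edgeR 4.0.16 (R 4.3.3) without covariates, after TMM normalization and filterByExpr, and p-values were adjusted by Benjamini-Hochberg over 14531 genes. The SE is the log2 fold change divided by the root of F. CPM are TMM-normalized. Pairs of replicates gave a chi-square of 3.38 to 9.15 per degree of freedom and thus differed by more than sampling noise. The fit was tested on simulated data. Motif counts and figures used Python 3.11.15 and matplotlib 3.10.9.

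Named are Hdac4, the 37 members by role, the ligand, receptor, kinase and STAT genes, and the tested genes with the largest and smallest fold change in each other list. Some genes of these lists are not reported here. The members, lists and tests were chosen with earlier results of these data known. Alternatives were DESeq2 size factors, upper quartile or library size scaling, DESeq2 1.42.0, limma-voom (limma 3.58.1), keeping genes with any count, requiring 10 counts in each library, the replicate number as a block, leaving out each library, and, added after seeing the data, leaving out replicate 3 of both groups.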

Additional observations from a re-analysis of the deposited data

Results flagged for a closer look

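Reads outside annotated genes, which enter no comparison, made up 5.07%, 4.64% and 4.66% of the reads counted in knockdown replicates 1, 2 and 3, above the 3.17 to 3.41% of the Control libraries. Their part in the members' levels was not tested.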

How the results depend on the processing

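Over 15 alternatives that change the scaling, the filter, the tool or the libraries, 23 of the 37 members kept their direction and their side of the threshold in every one. Of the 25 called lower, 21 stayed called in all, and of the 4 called higher, 2 did, Ifit1 and Trim25. Members called higher numbered 2 with DESeq2 and 2 to 5 with 1 library left out, members called lower 23 to 29, and members beyond 2-fold lower 7 throughout. With upper quartile scaling, 6 were called higher and 22 lower. Direction turned for 5 members, none of them called. The Ifit2 log2 fold change was 0.058 with upper quartile scaling, 0.025 with library size alone, 0.006 with at least 10 counts in every library, -0.12 to 0.030 with 1 library left out (0.030 without Control replicate 3, 0.020 and 0.018 without knockdown replicates 2 and 3), and 0.082 without replicate 3 of both groups. That of Mx1 was -0.30 to 0.079 with 1 library left out (0.055 without Control replicate 3, 0.079 without knockdown replicate 3) and 0.25 without both. Eif2ak2 gave 0.003 with upper quartile scaling and 0.011 without replicate 3 of both groups, where Ifit3 gave 0.052 and Parp14 0.054. Besides the libraries named with each gene, calls were lost for Oas2 and Mx2 with upper quartile or library size scaling, for Oas2 with at least 10 counts in every library, for Stat2 with DESeq2 or limma-voom and for Adar with DESeq2. Calls were gained for Ifit3, Usp18, Eif2ak2 and Parp14 with genes of any count kept, and for Gbp2 with upper quartile or library size scaling. The cause was not tested. The labels do not say whether replicate numbers pair the samples. Deviations of same-numbered libraries correlated at -0.0111, 0.027 and 0.0166, and such values cannot show how the samples were made. With the replicate block, 27 members were called lower and 4 higher, adding Ifit3 (adjusted p = 0.0325) and Usp18 (adjusted p = 0.0302), with 7 beyond 2-fold. Depth limits mainly the ligand genes, whose counts were too few to test, and Oasl1.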

Other observations

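The Schlafen family on chromosome 11 was singled out after its values were seen. Slfn8 and Slfn9 had the largest log2 fold changes after Sp110 among the 47 further interferon-stimulated genes, which also hold Slfn2, and the other tested Schlafen genes are outside that list. Slfn9 had 10.9, 9.89 and 10.1 CPM in Control and 118, 97.7 and 102 CPM in knockdown libraries (log2 fold change 3.36, edgeR adjusted p = 1.28e-18). Slfn8 had 0.72, 0.702 and 0.561 CPM in Control and 12.5, 13.8 and 9.3 CPM in knockdown libraries (log2 fold change 4.16, adjusted p = 1.88e-13). Slfn3 had 2.26, 2 and 2 CPM in Control and 17.1, 13.6 and 13 CPM in knockdown libraries (log2 fold change 2.80, adjusted p = 3.94e-13). In these 3 genes every knockdown library was above every Control library. Slfn2 rose by less (log2 fold change 0.69, adjusted p = 3.69e-06), whereas Slfn4 had a log2 fold change of -0.95 (adjusted p = 0.0824) and Slfn10-ps of 0.27 (adjusted p = 0.623). Slfn1, Slfn5 and Slfn14 had too few counts to test. Schlafen genes resemble each other in sequence, and reads that align to several of them are not counted.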
